A study of Mus musculus with 6 samples.

Results

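The genes described are 6 members of the mouse Ifi200 family, Ifi202b, Ifi203, Ifi204, Ifi205, Mnda and Aim2, which lie in 1 cluster on chromosome 1. They were chosen by symbol as genes that vary between mouse strains, from values of the comparison made here, and each matched 1 of the 23282 rows, so all 6 are accounted for. The data are RNA libraries of kidney from C57BL/6 mice (labelled B6, n = 3) and BALB/c mice (labelled BALBc, n = 3), inbred laboratory strains; the labels name no allele or treatment beyond the strain, and no age or sex. The series concerns innate lymphoid cells of the kidney in these strains. The libraries were made with a Lexogen Quant-Seq kit, per the labels' protocols, and held between 8310798 and 10416332 reads each. Whether this kit reads the 3′ end or the whole transcript could not be checked. Shared sequence of cluster genes is therefore given for whole transcripts as well as for their last 300 bases. No label says that the 3 libraries of a strain came from separate mice, so SDs and p-values measure the spread between these libraries, which may be technical. Levels are in CPM, reads of a gene relative to all reads of its library. A fold sets BALB/c against B6 as a difference of log2(CPM + 1) values, a scale that understates changes of genes near 0.

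Proteins of the Ifi200 (PYHIN) family are induced by interferons and bind DNA through HIN domains, and most members also carry a pyrin domain that pairs with pyrin domains of other proteins. AIM2 binds double-stranded DNA in the cytosol and recruits the adaptor ASC, the product of Pycard, to activate caspase-1, which matures interleukin-1 beta and interleukin-18. The Ifi202b product, p202, has HIN domains and no pyrin domain, is known as an antagonist of AIM2, and is long known to differ between inbred strains. Type I interferon acts on such genes through a complex that holds STAT2 and IRF9 and binds the interferon-stimulated response element (ISRE), and interferon gamma acts through the gamma-activated site (GAS).

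All 3 BALB/c libraries held reads of Ifi202b and no B6 library did, whereas Ifi203, Ifi205 and Mnda were lower in every BALB/c library than in any B6 library. The values of the strains overlapped for Ifi204 and Aim2. Hence 4 of the 6 genes did not overlap between the strains, 1 higher and 3 lower in BALB/c. Over the 13317 genes tested, 25.4% did not overlap, 12.5% with BALB/c higher and 12.9% with BALB/c lower; because the 6 genes were chosen from this comparison, nothing is read from their count. In bulk kidney RNA, fewer cells of a type and less RNA per cell cannot be told apart. Both strains were processed with mm10, which is a B6 genome, and whether BALB/c reads of this cluster went uncounted or were counted for a neighbouring gene was not tested.

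The sequences shown first are stretches near the starts of cluster genes, because genes with like stretches there were measured at differing levels between the strains. RefSeq promoter windows, from 250 bases before to 50 bases after a start, were found for 5 of the 6 genes and for 10 of the 11 cluster genes that could be placed; Ifi204 had no entry. The letters GAAA, any 2 bases and GAAA again, an ISRE core, were searched on both strands and occurred in windows of 7 of these 10 genes, among them Ifi203, Ifi205 and Mnda, against 3.44% of all 32851 windows of 300 bases. No match was found in those of Ifi202b, Aim2 and Pyhin1. The stretches of 60 bases around a match are given below 5′ to 3′ on the gene's strand, with the match in capitals, for the 3 genes of the set and for their neighbours Mndal and AI607873. All are from the reference of strain C57BL/6J (GRCm38.p6), minus strand; the BALB/c sequence was not analysed here.
Ifi203 (chr1:173942493-173942552): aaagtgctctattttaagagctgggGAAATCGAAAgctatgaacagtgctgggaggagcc
Mndal (chr1:173880189-173880248): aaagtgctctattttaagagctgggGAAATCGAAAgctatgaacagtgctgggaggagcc
Mnda (chr1:173913049-173913108): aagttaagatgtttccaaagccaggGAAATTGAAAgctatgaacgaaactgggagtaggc
Ifi205 (chr1:174031855-174031914): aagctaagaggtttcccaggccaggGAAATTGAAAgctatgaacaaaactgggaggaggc
AI607873 (chr1:173741816-173741875): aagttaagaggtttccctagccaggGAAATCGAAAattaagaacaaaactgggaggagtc

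The stretches of Ifi203 and Mndal were identical in 60 of 60 bases, within a run of 96 identical bases upstream of a RefSeq start of each. The longest such run in the cluster, 135 bases, was that of Pydc3 and Pydc4, which were too low to be tested. Those of Ifi205 and Mnda were identical in 54 of 60 bases, whereas Ifi203 and Mnda shared 41 of 60 at the same positions. The match began 35 bases before the start in 1 of the entries of Ifi203 and 36 in 1 of the entries of Mndal. It began 37 bases before the start in Mnda, 41 in AI607873 and 134 in Ifi205, which had another match after its start. The other entry of Ifi203 had no match. The other entry of Mndal had a match on the opposite strand, 54 bases before its start. The stretch around that match was identical to that of Ifi203 in 9 of 60 bases. The letters TTCNNNGAA, a GAS core that overlapped no ISRE match here, were found in the window of 1 cluster gene, Ifi202b, against 8.30% of all windows. The 250 bases before the RefSeq start of Ifi202b, the gene with reads in BALB/c alone, are given with the GAS letters in capitals (GRCm38.p6, minus strand). They are from the reference of C57BL/6J, the strain without reads of this gene. The RefSeq start lies upstream of the annotated gene, which ends at 173982744. Whether BALB/c transcripts begin there was not tested.
Ifi202b (chr1:173982845-173983094): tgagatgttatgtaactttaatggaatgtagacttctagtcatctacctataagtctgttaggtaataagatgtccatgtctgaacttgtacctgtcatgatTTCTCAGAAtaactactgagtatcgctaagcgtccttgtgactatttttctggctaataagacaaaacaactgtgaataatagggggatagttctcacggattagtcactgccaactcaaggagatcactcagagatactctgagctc
A match of such letters is a description of the reference sequence and not a binding site.

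Ifi202b, the gene of the pyrin-less p202 (GRCm38 chromosome 1, 173962568 to 173982744, minus strand, 7 annotated exons), had 0 reads in each of the 3 B6 libraries. In BALB/c it had 24, 11 and 26 reads in replicates 1, 2 and 3, that is 2.32, 1.30 and 2.61 CPM, with a mean of 2.07 ± 0.688 CPM (SD, n = 3). The 61 BALB/c reads, a pooled level of 2.14 CPM, were 20.02 times the level of 3 reads over the 3 B6 libraries together, the limit that a count of 0 allows. The counting error of the 61 reads is not in this ratio, so it is no lower bound. That limit and the intervals below cover counting error only. Ifi202b passed the filter on low values through the BALB/c libraries alone, so that it had to differ among tested genes. None of the words of 50 bases taken along its transcript occurred in another annotated gene, and 0.538% of those of Aim2 did.

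Aim2, the DNA sensor of the inflammasome (173350879 to 173466040, plus strand), lay at similar low levels in both strains. It had 1, 15 and 22 reads in B6 replicates 1, 2 and 3, or 0.110, 1.51 and 2.47 CPM. In BALB/c it had 13, 13 and 7 reads, or 1.26, 1.53 and 0.702 CPM. The B6 libraries held both the lowest and the highest value of all 6. The single read of B6 replicate 1 has an exact Poisson interval of 0.0253 to 5.57 reads (95%), which does not reach the 8.40 reads at which the interval of B6 replicate 2 begins. The B6 mean was 1.36 ± 1.18 CPM against 1.16 ± 0.424 in BALB/c (SD, n = 3 each), and the log2 fold was 0.00 ± 0.45 (SE). Leaving out B6 replicate 1 gave -0.47, and leaving out B6 replicate 3 gave 0.35. A strain difference of the size of this SE in either direction lay within the spread between these libraries.

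**Figure D1:**
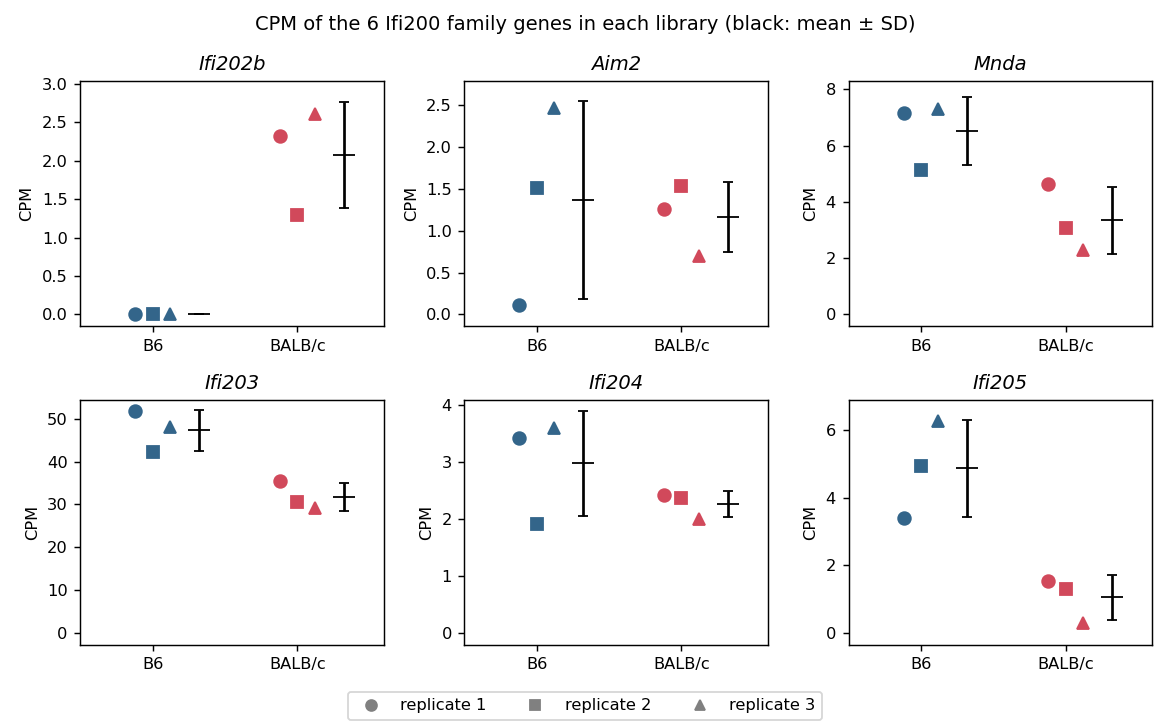
CPM of each of the 6 genes in the 3 B6 and 3 BALB/c libraries, with symbols for the replicate number and the mean ± SD in black; each panel has its own linear axis. Ifi202b sits at 0 in B6 and between 1.30 and 2.61 CPM in BALB/c, and Ifi203, Ifi205 and Mnda show B6 points above all BALB/c points.

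Ifi203, a pyrin and HIN domain gene (173920407 to 173942672, minus strand, 20 annotated exons), had the most reads of the set, between 259 and 470 per library. Its level was 51.7, 42.2 and 48.0 CPM in B6 replicates 1, 2 and 3. In BALB/c it was 35.5, 30.5 and 29.1 CPM. The lowest B6 library lay above the highest BALB/c library. The means were 47.3 ± 4.79 and 31.7 ± 3.36 CPM (SD, n = 3 each), a log2 fold of -0.56 ± 0.15 (SE). Ifi203 is thus the member whose fold rests on the deepest counts, and over the libraries left out in turn it stayed between -0.64 and -0.50.

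Ifi205 (174011998 to 174031810, minus strand), whose product is also called p205 or D3, had the lowest fold among the 6 genes. It measured 3.41, 4.94 and 6.28 CPM in B6 (31, 49 and 56 reads). In BALB/c it measured 1.55, 1.30 and 0.30 CPM (16, 11 and 3 reads). Every B6 value was more than any BALB/c value, and BALB/c replicate 3 was the lowest of all. The means were 4.88 ± 1.43 and 1.049 ± 0.660 CPM (SD, n = 3 each), a BALB/c to B6 ratio of 0.215 and a log2 fold of -1.55 ± 0.38 (SE).

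Mnda, named for myeloid nuclear differentiation antigen and now Ifi211 in mouse (173896345 to 173913046, minus strand), measured 7.16, 5.14 and 7.29 CPM in B6 (65, 51 and 65 reads). In BALB/c it measured 4.65, 3.07 and 2.30 CPM (48, 26 and 23 reads). The strains did not overlap, but B6 replicate 2 and BALB/c replicate 1 lay close together. The means were 6.53 ± 1.20 and 3.34 ± 1.19 CPM (SD, n = 3 each), a ratio of 0.511 and a log2 fold of -0.82 ± 0.32 (SE).

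The values of Mnda and Ifi205 are uncertain as single genes. Of the words of 50 bases in the last 300 bases of the transcript, 82.4% of those of Ifi205 occurred in Mnda (as Ifi211) and 80.4% of those of Mnda in Ifi205; over whole transcripts 49.5% and 73.0% were shared with some other gene. The labels do not say how reads with several alignments were treated. Summed, so that the division of reads between them plays no part, Mnda and Ifi205 came to 10.6, 10.1 and 13.6 CPM in B6 and to 6.19, 4.36 and 2.60 CPM in BALB/c. The sums of the strains did not overlap either.

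**Figure D2:**
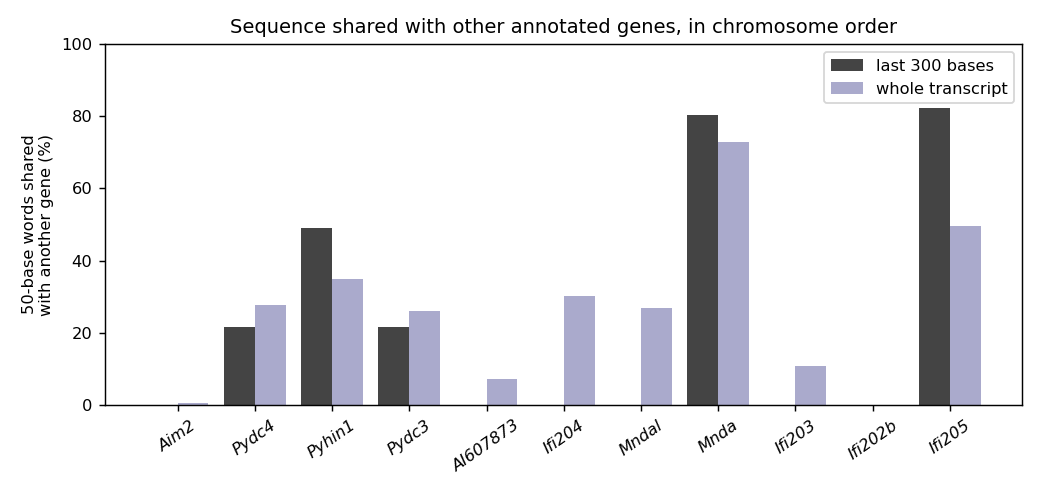
Percentage of 50-base words of each placed cluster gene that occur in another annotated gene, for the last 300 bases (dark) and the whole transcript (light), in chromosome order. Ifi205 and Mnda stand at 82.4% and 80.4% in the last 300 bases, while Ifi202b, Ifi203, Ifi204, Mndal, AI607873 and Aim2 have none there.

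Ifi204 (173747293 to 173766943, minus strand), the gene of the nuclear protein p204, measured 3.41, 1.92 and 3.59 CPM in B6 (31, 19 and 32 reads). In BALB/c it measured 2.42, 2.36 and 2.004 CPM (25, 20 and 20 reads). B6 replicate 2 lay below all BALB/c libraries, and the other B6 libraries lay above them. The means were 2.97 ± 0.919 and 2.26 ± 0.224 CPM (SD, n = 3 each), a log2 fold of -0.26 ± 0.36 (SE), less than its error. Its last 300 bases shared no words with another gene, although 30.2% of the words of its whole transcript did.

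The cluster spans 681 kb from Aim2 to Ifi205, and 5 further genes of the family in it have a row. Mndal (173849126 to 173942491, minus strand), which has a RefSeq start whose upstream stretch equals that of Ifi203, rose. It measured 43.4, 42.9 and 51.2 CPM in B6, as against 93.7, 108.4 and 90.2 in BALB/c. All BALB/c libraries lay above all B6 libraries, and the log2 fold was 1.07 ± 0.13 (SE; n = 3 each; adjusted p = 2.59e-06 by limma). The fold lay between 0.99 and 1.15 under the 15 alternatives tried, and the call was kept in each, with an adjusted p of at most 0.0126. Over all genes tested 9.09% were called, 4.17% higher and 4.93% lower in BALB/c. The annotated exons of Mndal and Ifi203 overlap by 37 bases on the same strand, and those of Mndal overlap Gm38050 by 118 bases. The annotated span of Mndal holds its printed stretch, all of Mnda and most of Ifi203. Its upper end, the 5′ end on this strand, lies beside the printed stretch of Ifi203. The RefSeq starts used for Mndal lie inside that span, and how reads were divided between these genes was not tested. The last 300 bases of Mndal and of Ifi203 share no words with another gene, but over whole transcripts 10.8% of the words of Ifi203 were shared, with Mndal among others, and 26.8% of those of Mndal, with Mnda (as Ifi211), Ifi205 and Ifi204.

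Ifi203 and Mndal therefore lay on opposite sides within the same libraries. The ratio of Mndal to Ifi203 CPM was 0.838, 1.02 and 1.07 in B6 and 2.64, 3.55 and 3.09 in BALB/c. This ratio is free of the scaling of a library, and its strain values did not overlap. The sum of both genes was 95.1, 85.2 and 99.2 CPM in B6, as against 129.2, 138.9 and 119.4 in BALB/c, so the lower Ifi203 and the higher Mndal did not cancel out. Summed without Mndal, the 6 genes came to 65.8, 55.7 and 67.6 CPM in B6 and to 47.7, 40.1 and 37.1 CPM in BALB/c.

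**Figure D3:**
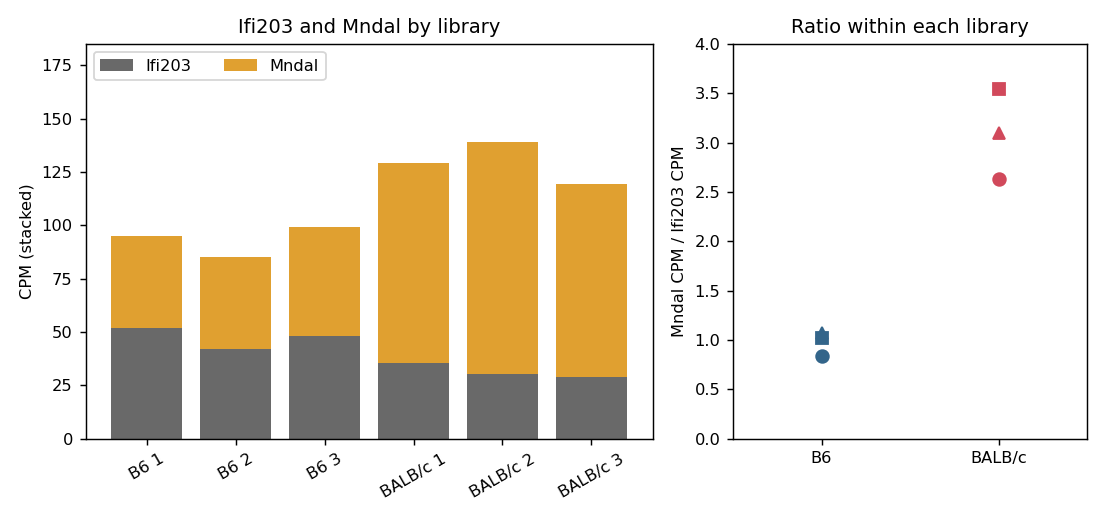
Left, stacked CPM of Ifi203 and Mndal in each library; right, the ratio of Mndal to Ifi203 CPM in each library of the 2 strains, with symbols for the replicate number. The ratio lies between 0.838 and 1.07 in B6 and between 2.64 and 3.55 in BALB/c.

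The other genes of the cluster were near the limit of detection. AI607873 (Ifi207) had 5, 11 and 8 reads in B6 and 3, 23 and 22 in BALB/c; its log2 fold was 0.44 ± 0.44 (SE; n = 3 each; adjusted p = 0.641 by limma). Pyhin1 (Ifi209) had 18 reads in all B6 libraries and 4 in all BALB/c libraries, Pydc3 (Ifi208) 13 and 16, and Pydc4 (Ifi213) 7 and 7. These 3 lay below the filter on low values and were not tested. BC094916 was listed at 0 in every library and could not be placed on the annotation by its symbol.

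**Figure D4:**
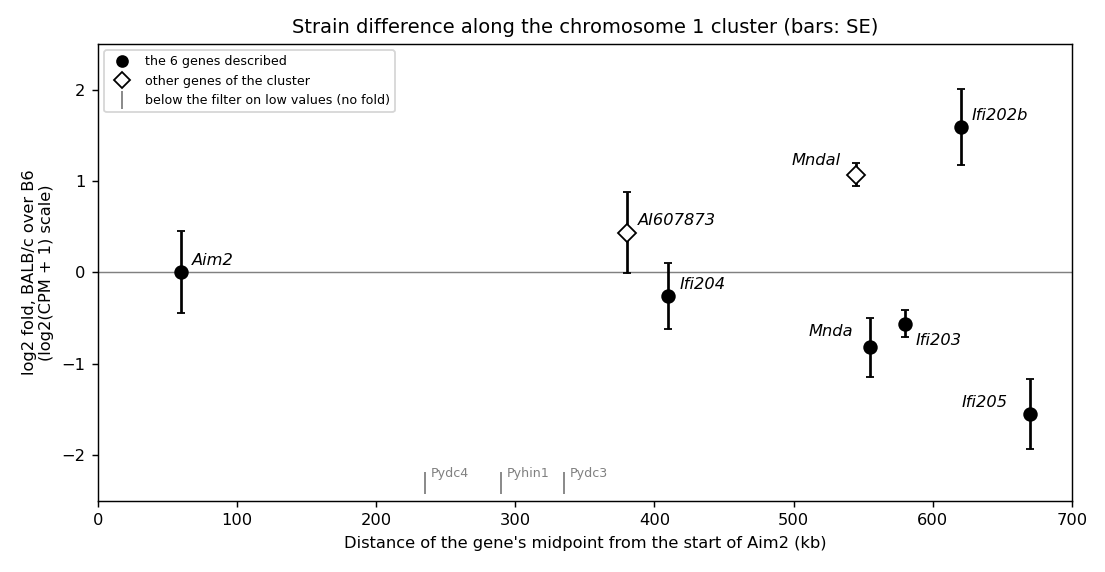
Log2 fold, BALB/c over B6, of each tested cluster gene against the distance of its midpoint from the start of Aim2 in kb; bars are SE, filled points the 6 genes and open points other genes of the cluster. Genes with positive and negative folds lie among each other at the far end, where, in order of position, Mndal (1.07), Mnda (-0.82), Ifi203 (-0.56), Ifi202b (no reads in B6) and Ifi205 (-1.55) lie.

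Genes beside the cluster were mostly silent in kidney. Within 1 Mb of it, 41 further rows were placed, of which 25 had 0 reads in every library and 10 were tested. Of the 10, 3 fell and 1 rose, against the 9.09% called over all genes. Dusp23, a phosphatase gene (172630764 to 172632962), fell from 31.1 ± 2.19 to 5.23 ± 0.612 CPM (SD, n = 3 each), which is -2.37 ± 0.22 on the log2 scale (SE, adjusted p = 5.74e-08 by limma). The potassium channel gene Kcnj10 had -0.57 (limma adjusted p = 0.0375) and the transgelin gene Tagln2 -0.42 (0.0159). Kcnj10 lost its call without any of 5 libraries (all but BALB/c replicate 3, adjusted p up to 0.217), without a trend in the variance prior (0.165), without the filter (0.0938) and with total-read scaling (0.0569). The call of Tagln2 ended when B6 replicate 2 (0.0698) or BALB/c replicate 1 (0.133) was left out, without the trend (0.201) and without the filter (0.0569). The single gene that rose, Fmn2, named after its values were seen, lost its call when any of 4 libraries was left out: replicate 2 or 3 of B6, or replicate 1 or 2 of BALB/c (adjusted p up to 0.178). It also lost it without the trend (0.107), without the filter (0.0611), with a replicate block (0.0524) and with a pseudocount of 5 CPM (0.0516).

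The list of inflammasome genes holds partners of AIM2 and also genes of other inflammasomes, such as Nlrp3 and Nlrc4. It gave 12 tested genes of 19 with a row, of which 1 rose, 1 fell and 10 were not called (16.7% called, against 9.09% of all genes). The median log2 fold was -0.01, beside 0.00 over all genes tested. Pycard, the gene of the adaptor ASC, fell from 16.3 ± 1.56 to 6.44 ± 1.81 CPM (SD, n = 3 each), which is -1.25 ± 0.26 on the log2 scale (SE, adjusted p = 0.00239 by limma). All 3 B6 libraries lay above all BALB/c libraries. Its exons overlap those of Gm45205 on the other strand, and whether strand was used in counting is not given. Txnip, the gene of a thioredoxin-binding protein that can bind NLRP3, rose by 0.71 ± 0.13 (limma adjusted p = 5.69e-04), a call that ended without a trend in the variance prior (0.119). The caspase gene Casp1, at 1.40 ± 1.10 and 1.42 ± 0.554 CPM, had 0.08 (limma adjusted p = 0.947). The pore-forming gasdermin D gene Gsdmd had 0.69 (0.318), the cytokine gene Il1b 0.48 (0.522) and Il18 -0.66 (0.419).

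Sensors and adaptors of nucleic acids in the cytosol and endosome, a list of other routes from DNA or RNA to interferon, gave no call among 18 tested of 21 by limma (9.09% of all genes were called), nor in any of the 15 alternatives, and 1 had an unadjusted p under 0.05. Their median log2 fold was 0.09. The interferon genes themselves, 21 ligands, were listed at 0 reads in every library, which allows up to 3 reads per library for each.

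Receptors and signalling genes of the interferon response gave 1 rise and 1 fall among 22 tested (9.09%, the same as over all genes), with a median log2 fold of 0.09. Stat2 rose by 1.38 ± 0.27 (SE, n = 3 each, limma adjusted p = 0.00153), while Irf9 (0.07, 0.860), another part of its complex, was not called. Ifnar1, a chain of the type I interferon receptor, fell from 26.0 ± 5.98 to 11.8 ± 1.98 CPM, which is -1.07 ± 0.22 on the log2 scale (SE, adjusted p = 0.00194 by limma), and 11.8% of the words of its last 300 bases were shared with other genes. The partner chain gene Ifnar2 had 0.27 (0.250), Ifngr1 -0.07 (0.865) and Irf7 0.09 (0.931).

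Other interferon-stimulated genes moved in both directions: of 45 tested effectors, 6 rose, 3 fell and 36 were not called, beside the 9.09% called of all genes, with a median log2 fold of 0.23. Among the 6, Ifi44l had 0, 1 and 1 reads in B6 and 54, 43 and 49 in BALB/c, so that it passed the filter on low values through BALB/c alone and had to differ, and no p is given for it. Its rise is within the count of 6 but is not read as a result. The guanylate-binding protein gene Gbp4, with exons that overlap those of Gbp8 and Gbp9, rose by 1.46 ± 0.31 (limma adjusted p = 0.00274), Gbp3 by 0.81 and the ubiquitin ligase gene Trim25 by 0.57. Ifit3 fell by 1.03 and Rsad2, the gene of viperin, by 0.72 on the log2 scale. Without a trend in the variance prior the calls of Gbp3 (limma adjusted p = 0.121), Trim25 (0.0594) and Rsad2 (0.0513) ended and the list kept 4 calls, Ifi44l among them.

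**Figure D5:**
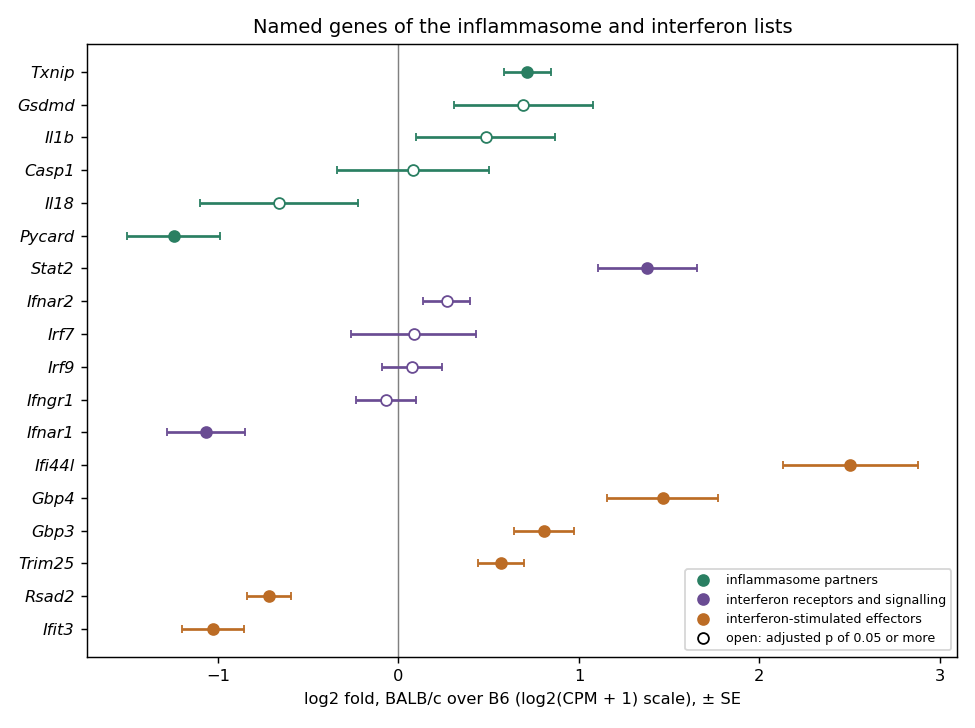
Log2 fold, BALB/c over B6, with SE for the genes given above of the inflammasome (green), interferon signalling (purple) and interferon-stimulated effector (brown) lists; filled points have a limma adjusted p under 0.05. Pycard (-1.25), Ifnar1 (-1.07) and Ifit3 lie on the B6 side, Stat2 (1.38) and Gbp4 (1.46) on the BALB/c side.

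Several of the 6 genes are known from myeloid cells, so markers of other cells were measured beside them. The 21 macrophage and monocyte markers summed to between 242.4 and 251.9 CPM in B6 and to between 309.7 and 319.8 CPM in BALB/c, with 11 of 21 higher in the mean in BALB/c and none at 0. Of the 20 markers tested, 3 were called higher in BALB/c and 0 lower (15% called, against 9.09% of all genes). The 3 were Csf1r, Cx3cr1 (9.48 CPM in B6 and 18.5 in BALB/c, limma adjusted p = 0.0254) and Lyz2 (3.57 and 9.47 CPM, 0.0376). In a step that was not planned, the 20 markers other than Csf1r were summed. They came to between 178.0 and 197.1 CPM in B6 and to between 176.8 and 216.6 CPM in BALB/c, which overlapped. The 8 neutrophil markers summed to between 1.54 and 3.81 CPM in B6 and between 7.21 and 14.5 CPM in BALB/c. Of the 8, 4 were higher in the mean in BALB/c, Csf3r was not (0.150 in B6 and 0.143), and Elane, Mpo and Mmp8 were at 0 in every library. The highest in BALB/c were S100a9 (0.960 CPM in B6 and 4.97 in BALB/c) and S100a8 (1.08 and 3.58). The summed B cell markers (25.005 to 29.3 CPM in B6, 23.8 to 30.7 in BALB/c, Pax5 at 0), T and NK cell markers (5.51 to 9.78 and 7.51 to 8.49) and dendritic cell markers (6.61 to 11.1 and 7.82 to 12.3) overlapped between the strains. The part of these cells in the levels of the Ifi200 genes was not tested. Kidney markers were present in all libraries, with proximal tubule markers between 7977 and 8912 CPM in sum. Of these 8, 1 was called higher in BALB/c, Slc5a12 (12.5%, against 9.09% of all genes). Of 8 loop, distal and collecting duct markers, 2 were called lower, Slc12a3 and Calb1 (25%). Of 6 endothelial markers 0 were called.

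The tested genes nearest in profile were found by the root mean square difference of log2 deviations from each gene's mean over the same 6 libraries, so that every profile holds the strain difference and the depths of these libraries. For Ifi203 these were Kl, the gene of the ageing-related hormone receptor klotho (difference 0.0388), Tars (0.0434) and Gcnt1 (0.0514). For Mnda they were Rel, an NF-kappa-B subunit gene (0.0728), Gm13306 (0.0974) and Lrrc57 (0.118). For Ifi205 they were the transcription factor gene Klf4 (0.166), Apobec2 (0.202) and Gm4070 (0.218), and for Ifi202b the tetraspanin gene Cd82 (0.124), Lrriq1 (0.155) and Serpina6 (0.171). Ifi204 lay nearest to Ift22 (0.0432), Slc17a3 (0.0613) and Slc44a3 (0.0617), and Aim2 to Tbc1d31 (0.146) and Pitpnm3 (0.184). No other Ifi200 gene was among the 3 nearest of any of the 6.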

How the data were processed

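Gene values were deposited for 6 kidney libraries, 3 labelled B6 and 3 labelled BALBc, each with 23282 rows. The authors' processing with mm10 named Bowtie2 and bedtools, per the submitters' processing notes, while versions, annotation, strand and the handling of reads with several alignments were not given in the sources used here. Log2 values were deposited by the authors: undone as a power of 2 and lowered by 1, they summed to between 980188 and 1043599 per library. In each library all values of at most 20 reads (100%) lay within 0.1 read of a whole number of equal steps. They are thus log2(CPM + 1) values with a further scaling per library, and read numbers could be recovered.

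Rows with a log2 value of at least 1 in at least 3 libraries were tested (13317 genes) with limma 3.58.1 in R 4.3.3 on the deposited log2 values, with strain as the sole term, a trend in the variance prior and Benjamini-Hochberg adjustment over all genes tested; called means an adjusted p under 0.05. The test was tried on simulated reads. Coordinates are those of GENCODE M21 (assembly GRCm38, which is mm10), and upstream sequences are from RefSeq on GRCm38.p6. Older symbols were matched through RefSeq synonyms: Mnda is the current Ifi211, Pyhin1 Ifi209, Pydc3 Ifi208, Pydc4 Ifi213 and AI607873 Ifi207. A630033H20Rik, listed at first with the cluster, belongs to P2ry10b on chromosome X and was left out.

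The 6 genes and all gene lists were chosen with earlier results of these data known. The 6 genes were picked from this same strain comparison, so their values are a description with no p. The genes named beyond them were the other genes of the cluster, called genes of each list (up to 6 with the smallest p), a fixed set of inflammasome and interferon signalling genes, and the 3 nearest profiles for each of the 6 genes. A few of these genes are not reported here. Alternatives covered the filter, the pseudocount, the scaling, the variance prior, a block for replicate number and each library left out; limma-voom on recovered reads was added after seeing the data.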

Additional observations from a re-analysis of the deposited data

How the results depend on the processing

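The fitted log2 fold of Ifi202b, which has no reads in B6, moved with the pseudocount, to 2.33 at 0.5 CPM and 0.50 at 5 CPM, against 1.59 at 1 CPM, and to 5.28 with limma-voom on recovered reads; it is no estimate of the ratio. At 5 CPM Ifi205 came to -0.70 and Mnda to -0.47, and limma-voom gave -2.41 for Ifi205. With each library left out in turn the folds lay between 1.47 and 1.79 for Ifi202b, -0.64 and -0.50 for Ifi203, -0.47 and -0.14 for Ifi204, -1.74 and -1.25 for Ifi205, -1.02 and -0.64 for Mnda, and -0.47 and 0.35 for Aim2. A mean of at least 5 CPM left only Ifi203 among the 6 genes. Over all genes 1211 were called (555 higher, 656 lower); with total-read scaling 589 were higher and 554 lower. Without a trend in the variance prior 493 were called, 227 higher and 266 lower, and the 4 pathway lists together kept 7 calls of 13. Both the 7 and the 13 hold Ifi44l, which passed the filter on low values through BALB/c alone. Leaving out a library gave 797 to 1138 calls, 350 to 534 higher and 415 to 604 lower, with the fewest without BALB/c replicate 1 (797) or B6 replicate 1 (806). The cause was not tested. With a replicate block 977 genes were called. Whether the labels' shared replicate numbers pair the libraries is not known. Deviations of same-numbered libraries correlated at 0.0115, -0.0570 and -0.0844, and not every library correlated best with its own number. With 3 libraries per strain such correlations cannot exclude a pairing. The planned edgeR and DESeq2 tests on recovered reads were not run; limma-voom was the test run on those reads. At this depth genes with few reads per library have wide intervals, such as Aim2 (1 to 22 reads), Ifi202b in BALB/c (11 to 26) and Ifi205 in BALB/c (3 to 16).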

Other observations

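Ifit3 and Ifit3b, neighbouring interferon-stimulated genes on chromosome 19 named here after their values were seen, also lay on opposite sides in the same libraries. Ifit3 measured 44.7, 43.8 and 37.1 CPM in B6 and 16.4, 23.5 and 20.6 CPM in BALB/c. Ifit3b measured 9.25, 13.0 and 8.41 CPM in B6 and 19.0, 16.6 and 16.9 CPM in BALB/c. The strains overlapped for neither gene. Of the 50-base words in their last 300 bases, 1.96% occurred in another gene for each, among them a word of Ifit3 found in Ifit3b. Whole transcripts of this pair were not compared, and the deposited values do not show where along a transcript reads fell. How far reads of the pair can be told apart is therefore not known. Whether BALB/c reads were assigned from the one to the other was not tested.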
